A study of Mus musculus with 244 samples.

Results

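Abcg1-expressing regression macrophages are single cells from regressing mouse plaque in which the transcript of the cholesterol exporter Abcg1 was measured at an RPKM (reads per kilobase of transcript, scaled to the mapped reads of the library) of 1 or more. They were chosen by their Abcg1 value among the regression cells with at least 1000 genes at an RPKM of 1 or more. The rule gave 56 of 113 kept regression cells, and the other 57 regression cells had Abcg1 below 1. Of 116 regression cells before the filter, 3 were left out, 1 of them with Abcg1 at 1 or more. The whole series held 241 cells, of which 238 were kept. Because the rule used Abcg1, that gene is left out of everything below except its own levels.

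The series measured macrophages sorted from the aortic arch as CD45, CD11b and F4/80 positive cells and captured singly on a microfluidic chip. In the regression group, arches of Apoe-/- donors that had eaten a high-fat diet for 16 weeks were transplanted into wild-type recipients on chow, and the cells were taken 3 days later. In the baseline group, cells came straight from Apoe-/- mice after 16 weeks of the same diet, and 125 cells remained after 3 pairs of near-copy libraries were averaged. The labels name no animal, and a graft can hold cells of donor and of recipient, so each group counts as 1 sample. Values below therefore describe these cells, without a test between conditions, and an SD is the spread over cells.

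Abcg1 is a membrane transporter that moves cholesterol out of macrophages to high-density lipoprotein. Its transcription, like that of its partner Abca1, is driven by the liver X receptors (LXR), nuclear receptors that bind oxidised cholesterol. Both exporters are known for limiting the build-up of cholesterol ester in the foam cells of plaque. Other LXR targets alter cholesterol uptake (Mylip, which marks the LDL receptor for degradation), lipoprotein traffic (Apoe, Lpl, Pltp) and membrane lipid composition (Lpcat3, Scd2).

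Abcg1 itself varied widely in the selected cells, with a lowest RPKM of 2.353, a median of 248.1 and a highest of 2186. In the other regression cells it was listed at 0 in 47 of 57 cells and lay between 0 and 1 in 10. The 4 selected cells nearest to the threshold had RPKM values of 2.353, 3.14, 3.838 and 6.529, and the 3 nearest cells below it had 0.8222, 0.5372 and 0.5225. The dividing value therefore fell in a sparse stretch, with 4 of the 56 selected cells between 1 and 10. In baseline cells the median was 725.1, and 115 of 125 cells (92.0%, exact 95% binomial interval 85.8 to 96.1) reached 1, against 49.6% (40.0 to 59.1) of regression cells. These intervals cover counting error only.

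The selected cells carried macrophage transcripts. At least 3 of 7 markers (Csf1r, Adgre1, Cd68, Fcgr1, Mertk, Itgam and Lyz2) were listed in 56 of 56 selected cells, in 56 of 57 other regression cells and in 122 of 125 baseline cells. The summed marker RPKM had a median of 14825 (1520 to 52248) in selected cells, 13819 (1708 to 33121) in the other regression cells and 8709 (65.4 to 31932) in baseline cells. At least 3 of 6 classical monocyte markers were listed in 22 of 56 selected cells, 33 of 57 other regression cells and 31 of 125 baseline cells. Their summed RPKM had a median of 496 (2.69 to 9071) in selected cells, 665 (13.3 to 17802) in other regression cells and 380 (0 to 4007) in baseline cells. At least 3 neutrophil markers were listed in 6 selected, 8 other regression and 5 baseline cells, with Ly6g and Mpo listed in none of these cells. No selected cell had 3 markers of dendritic, T, B, NK, endothelial, smooth muscle or fibroblast cells. Of 8 conventional dendritic cell markers, 4 were listed in selected cells, while Zbtb46, Clec9a, Itgae and Kit were not. The summed RPKM of the 8 had a median of 0.095 (0 to 1634) in selected cells and 0 (0 to 632) in other regression cells.

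Cells with Abcg1 also had somewhat more genes detected. A median of 2419.5 genes (1141 to 4118), not counting Abcg1, reached an RPKM of 1 in selected cells, against 2213 (1200 to 3766) in the other regression cells and 2490 (1095 to 4377) in baseline cells. When the 113 regression cells were ordered by genes detected and cut into 3 equal bins, Abcg1 reached 1 in 62.2% (23 of 37, interval 44.8 to 77.5) of the cells with the most genes, 50.0% (19 of 38, 33.4 to 66.6) of the middle bin and 36.8% (14 of 38, 21.8 to 54.0) of the cells with the fewest. The selected cells thus came more often from libraries in which more genes were seen, and the main differences below are also given within these 3 bins (the difference in each bin, averaged with the number of cells as weight). For the baseline-high and regression-high scores, 3 such bins were cut anew among the regression cells scored together. RPKM values cannot be thinned to an equal depth as counts can.

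The order did not hold in every run of cell numbers. The labels number the regression cells in 3 separate stretches, and the sources do not say whether these are chips or days. In cells 1 to 20 the median was 2864 genes in 10 selected cells and 2624.5 in 10 others, and in cells 168 to 244 it was 2612.5 in 38 selected cells and 2174 in 37 others. In cells 93 to 111 it was 1887.5 in 8 selected cells and 2043.5 in 10 others. The difference between the medians was 206.5 genes over all cells, 476 without cells 93 to 111 and 29 without cells 168 to 244. Read depth, recovered from the smallest steps of the RPKM values, had a median of 870000 reads in 51 selected cells, 861500 in 48 other regression cells and 1095000 in 108 baseline cells. Mitochondrial transcripts made up a median of 7.59% of RPKM in selected cells, 8.48% in other regression cells and 7.09% in baseline cells, and the highest cell reached 23.5% among selected cells, 31.1% among other regression cells and 27.7% among baseline cells.

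**Figure D1:**
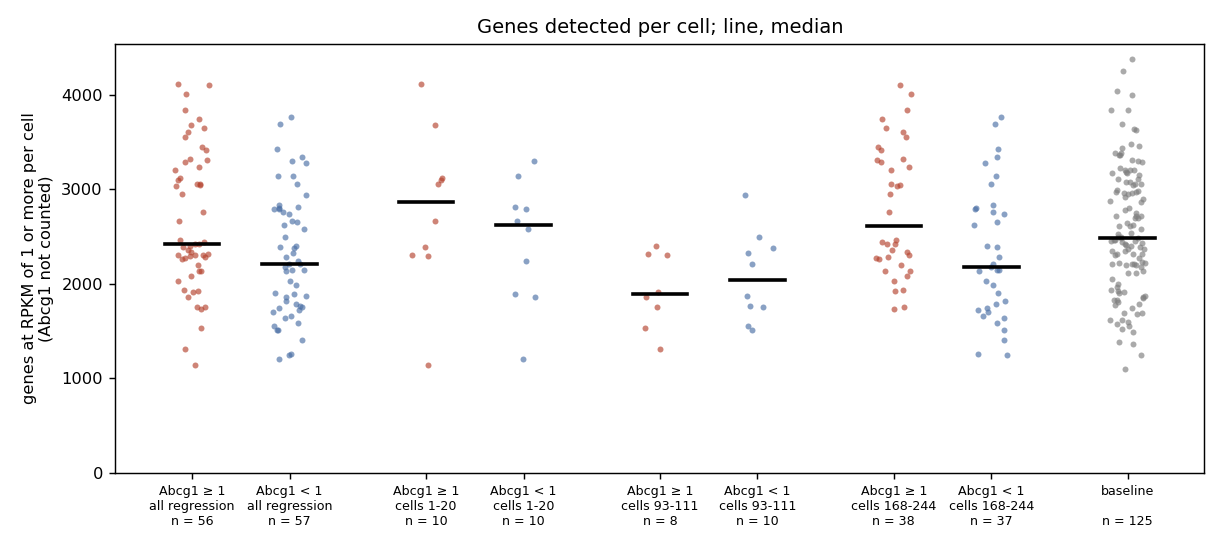
Genes at an RPKM of 1 or more in each cell (vertical axis, number of genes, Abcg1 not counted) for Abcg1-expressing regression cells, other regression cells and baseline cells, over all regression cells and in each stretch of cell numbers; points are cells and lines are medians. The selected cells have the higher median overall (2419.5 against 2213 genes) and in cells 1 to 20 and 168 to 244, and the lower one in cells 93 to 111, while the points overlap in every pair.

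Most genes were a little higher in the selected cells. Over the 4113 genes that reached an RPKM of 1 in 25% or more of either set of regression cells, the median difference in mean log2(RPKM + 1) was 0.30, and 73.1% of genes were higher in the selected cells. Within the bins of genes detected the median difference was 0.11, with 59.0% of genes higher. A difference of 1 or more was seen for 365 genes higher (8.87%) and 38 genes lower (0.924%) in the selected cells, and within bins for 179 and 88 genes. By stretch the median difference was 0.31 in cells 1 to 20, -0.12 in cells 93 to 111 and 0.36 in cells 168 to 244. Without cells 93 to 111, 568 genes were higher by 1 or more, and without cells 168 to 244, 645 were higher and 444 lower. A sign that held in every stretch, within bins and in the ratio of mean RPKM was found for 889 genes, of which 676 were higher and 213 lower in the selected cells.

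The genes with the highest differences that kept their sign were Dram2, Tmem176a, Slamf9, Ndufs6, Rgs1, Mrpl33, Glud1, Cd9, Trmt112, Ubl3, Mdh1 and Zfp36, with differences of 1.82 to 2.42, and 1.54 to 2.31 within bins of genes detected. Since they were ranked on this difference, the sizes are a description. They cover a SLAM-family receptor, a tetraspanin, a lysosomal membrane protein linked to autophagy, a regulator of G-protein signalling and several mitochondrial or metabolic proteins.

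Slamf9 (Entrez gene 98365; GRCm38 chromosome 1, 172475358 to 172478575, plus strand) encodes a receptor of the SLAM family, found on myeloid cells. Its log2(RPKM + 1) had a median of 0 in selected cells (0 to 10.38), 0 in other regression cells (0 to 10.65) and 7.85 in baseline cells (0 to 11.23). The groups differed in how many cells had the transcript rather than in the highest level. It reached an RPKM of 1 in 27 of 56 selected cells (48.2%, interval 34.7 to 62.0), in 7 of 57 other regression cells (12.3%, 5.1 to 23.7) and in 100 of 125 baseline cells (80.0%, 71.9 to 86.6). The mean difference between the regression cells was 2.23, and it was 3.70 in cells 1 to 20, 0.58 in cells 93 to 111 and 2.24 in cells 168 to 244. From the fewest to the most genes detected the bins gave 3.03, 0.29 and 2.66.

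Cd9 (Entrez gene 12527; chromosome 6, 125460266 to 125494791, minus strand) is a tetraspanin, a membrane organiser abundant on lipid-loaded macrophages. It had a median of 7.45 in selected cells (0 to 12.20), 2.77 in other regression cells (0 to 10.50) and 8.84 in baseline cells (0 to 11.61). Selected cells lay between the other cells of the graft and the baseline cells, with wide overlap. The difference of 2.09 was 0.09 in the bin with the fewest genes, 1.88 in the middle bin and 2.67 in the bin with the most.

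Dram2 (Entrez gene 67171; chromosome 3, 106547798 to 106575890, plus strand), a lysosomal membrane protein linked to autophagy, had a median of 4.09 in selected cells (0 to 10.33), 0 in other regression cells (0 to 8.15) and 3.20 in baseline cells (0 to 10.79). It was listed in 69.6% of selected cells (interval 55.9 to 81.2), 35.1% of other regression cells (22.9 to 48.9) and 63.2% of baseline cells (54.1 to 71.6). Its difference of 2.42 was 2.69, 2.31 and 1.18 from the bin with the fewest to that with the most genes detected. Zfp36, whose protein tristetraprolin speeds the decay of inflammatory mRNAs, was listed in 56 of 56 selected cells, 48 of 57 other regression cells and 122 of 125 baseline cells. Its mean level was 8.01 in selected cells, 6.19 in other regression cells and 8.21 in baseline cells.

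Rgs1, which dampens signalling from chemokine receptors, averaged 6.87 in selected cells, 4.72 in other regression cells and 8.54 in baseline cells. Its difference of 2.15 rested mainly on the bin with the fewest genes detected, with 4.49 there, -0.11 in the middle bin and 1.05 in the bin with the most. Tmem176a, a multi-pass membrane protein of antigen-presenting cells, averaged 4.00 in selected cells, 1.75 in other regression cells and 4.48 in baseline cells. The metabolic genes of the set had other patterns against baseline. The cytosolic malate dehydrogenase Mdh1 averaged 3.42 in selected cells, 1.48 in other regression cells and 4.60 in baseline cells, while the glutamate dehydrogenase Glud1 averaged 4.51 in selected cells, 2.39 in other regression cells and 3.39 in baseline cells. The respiratory NADH dehydrogenase subunit Ndufs6 averaged 5.45 in selected cells, 3.27 in other regression cells and 4.02 in baseline cells. The mitochondrial ribosomal protein gene Mrpl33 averaged 8.10 in selected cells, 5.96 in other regression cells and 6.19 in baseline cells.

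**Figure D2:**
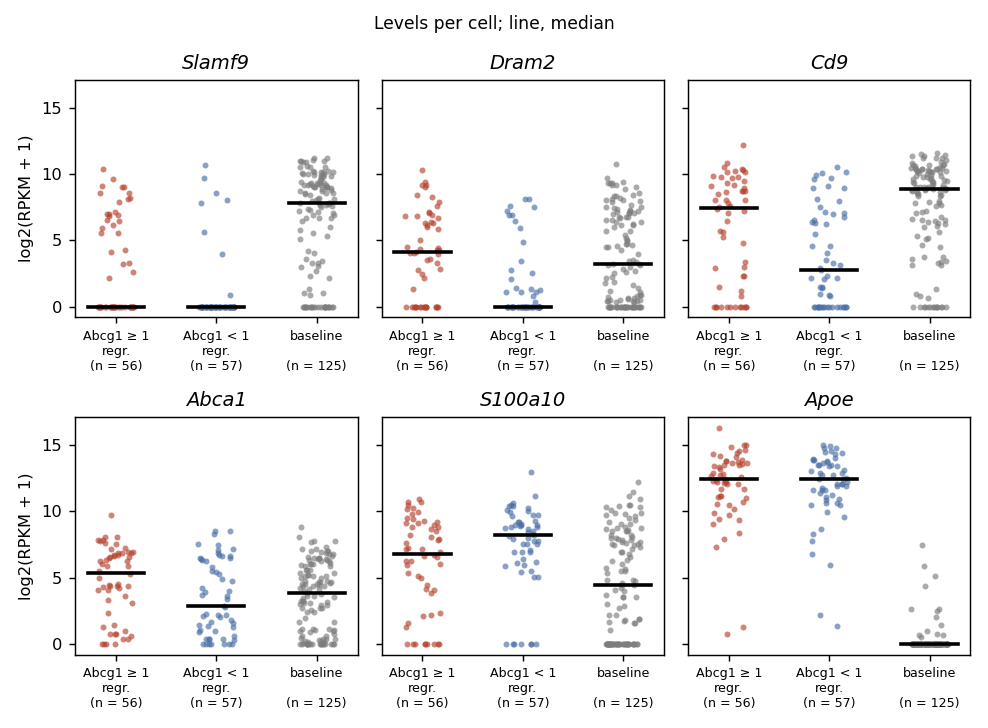
Level of 6 genes in each cell (vertical axis, log2(RPKM + 1)) in 56 Abcg1-expressing regression cells, 57 other regression cells and 125 baseline cells; points are cells and lines are medians. Slamf9, Dram2, Cd9 and Abca1 are present in more of the selected cells or at a higher median than in the other regression cells, S100a10 has the lower median in the selected cells, and Apoe has almost the same median in both sets (12.42 and 12.41) and is at 0 in most baseline cells.

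The genes with the lowest differences were Ndufc2, F13a1, Cmtm3, Btf3l4, Ms4a4a, S100a10, Trib1, Ndufb9, Slc25a51, Fam32a, Lamtor1 and Ccdc23, with differences of -1.47 to -1.17, and -1.91 to -1.27 within bins. F13a1 (Entrez gene 74145; chromosome 13, 36867178 to 37050244, minus strand) encodes the catalytic chain of clotting factor XIII and is abundant in classical monocytes. It had a median of 5.30 in selected cells (0 to 10.01), 7.36 in other regression cells (0 to 10.06) and 3.01 in baseline cells (0 to 10.18). S100a10 (Entrez gene 20194; chromosome 3, 93555080 to 93564643, plus strand), the partner of annexin A2 at the cell surface, had a median of 6.82 in selected cells (0 to 10.97), 8.25 in other regression cells (0 to 12.97) and 4.43 in baseline cells (0 to 12.19). For both genes the selected cells lay between the other regression cells and the baseline cells, and the 3 groups overlapped.

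Ndufc2 and Ndufb9, like Ndufs6 subunits of the respiratory NADH dehydrogenase, were on the opposite side from it. Ndufc2 averaged 3.43 in selected cells, 4.90 in other regression cells and 4.37 in baseline cells. Ndufb9 averaged 2.87 in selected cells, 4.11 in other regression cells and 3.61 in baseline cells. Trib1, a pseudokinase that shapes macrophage differentiation, averaged 1.75 in selected cells, 3.03 in other regression cells and 2.20 in baseline cells. Lamtor1, which anchors the growth regulator mTORC1 to lysosomes, averaged 3.66 in selected cells, 4.84 in other regression cells and 3.81 in baseline cells.

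**Figure D3:**
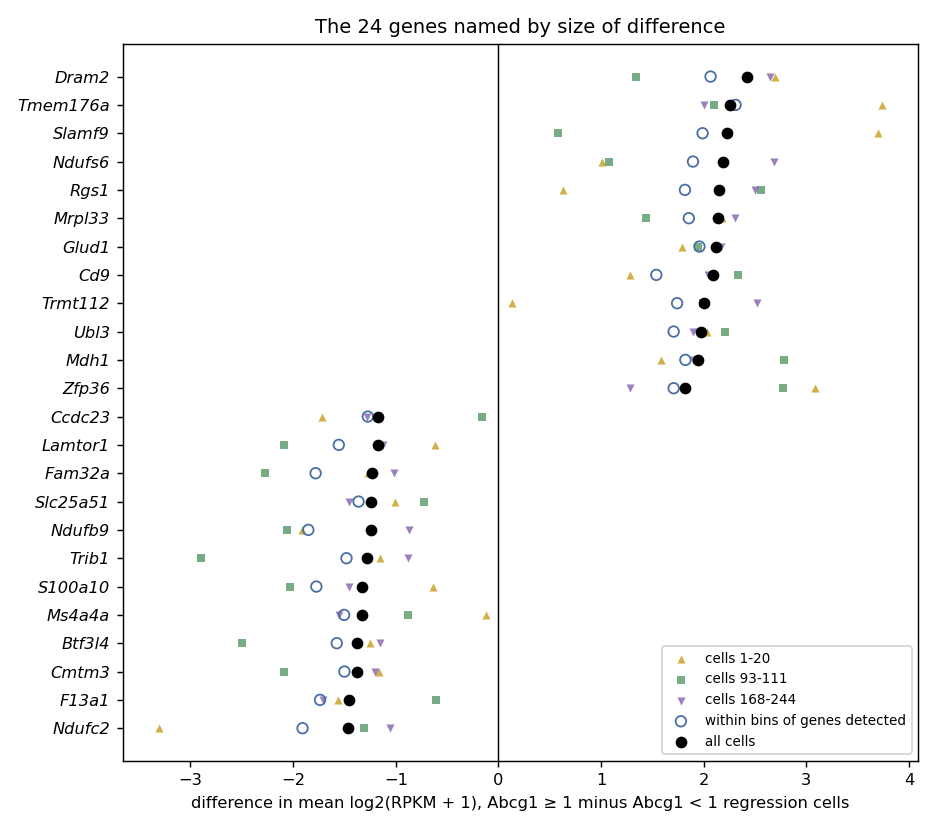
Difference in mean log2(RPKM + 1) of Abcg1-expressing minus other regression cells (horizontal axis) for the 12 highest and 12 lowest genes that kept their sign; filled circles are all cells, open circles the average within bins of genes detected, and triangles and squares the 3 stretches of cell numbers. The genes were ranked by the filled circles and required to have 1 sign throughout, so the side is set by the choice, while the stretches spread widely around it, as for Slamf9 (3.70, 0.58 and 2.24).

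LXR target genes other than Abcg1 were asked first among the gene lists, since Abcg1 is one of them. Of 17 measured targets, 15 were higher in the selected cells, with a median difference of 0.34 (0.23 within bins), beside 0.14 (0.05 within bins) over the 9462 genes that reached an RPKM of 1 in 5% or more of either set. Of these 9462 genes, 67.0% were higher at all, 3.9% were higher by 1 or more and 0.444% lower by 1 or more. Of the targets 1 was higher by 1 or more and 0 were lower, and the 1 gene was Abca1.

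Abca1, the exporter that loads cholesterol onto apolipoprotein A-I, had a median of 5.38 in selected cells (0 to 9.74), 2.84 in other regression cells (0 to 8.52) and 3.84 in baseline cells (0 to 8.80). It reached an RPKM of 1 in 45 of 56 selected cells (80.4%, interval 67.6 to 89.8), 42 of 57 other regression cells (73.7%, 60.3 to 84.5) and 91 of 125 baseline cells (72.8%, 64.1 to 80.4). Its level, more than its presence, thus went with Abcg1. The difference was 1.22 (1.08 within bins), and 0.48, 3.33 and 0.95 in cells 1 to 20, 93 to 111 and 168 to 244.

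Lpl, the lipoprotein lipase, was listed in 24 of 56 selected cells, 15 of 57 other regression cells and 91 of 125 baseline cells. Its mean level was 2.49 in selected cells, 1.49 in other regression cells and 4.36 in baseline cells. Mylip averaged 1.34 in selected cells, 0.61 in other regression cells and 2.06 in baseline cells. Lpcat3, which builds polyunsaturated phospholipids, averaged 1.94 in selected cells, 1.37 in other regression cells and 1.19 in baseline cells. The receptor gene Nr1h3 (LXR alpha) was low throughout, with a mean of 0.74 in selected cells, 0.44 in other regression cells and 0.29 in baseline cells. Srebf1, the lipogenic LXR target, averaged 0.52 in selected cells and 0.72 in other regression cells.

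Apoe, itself an LXR target and the gene deleted in the donors, did not divide the regression cells by Abcg1. It had a median of 12.42 in selected cells (0.74 to 16.30), 12.41 in other regression cells (1.37 to 14.98) and 0 in baseline cells (0 to 7.49). At or below the highest baseline cell lay 3 of 56 selected cells and 4 of 57 other regression cells. The mean difference between the regression cells was 0.09, and 0.03 within bins.

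Among genes of sterol handling, 14 of 17 were higher in the selected cells, beside 67.0% of all genes, and 11 of 17 within bins. Their median was 0.21 (0.16 within bins), and 2 were higher by 1 or more, beside 3.9% of all genes. Soat1, which esterifies cholesterol for storage in droplets, averaged 4.61 in selected cells, 3.39 in other regression cells and 3.67 in baseline cells. It was listed in 49 of 56 selected cells, 39 of 57 other regression cells and 85 of 125 baseline cells, and its difference of 1.22 was 1.11, 0.86 and 1.17 in the 3 bins. Lipa, the lysosomal lipase that frees cholesterol from its esters, averaged 3.99 in selected cells and 3.20 in other regression cells, a difference of 0.79 that was 0.28 within bins. The scavenger receptors of this list and of the lipid-laden list did not share a side: Scarb1 averaged 1.51 in selected cells and 0.74 in others, Cd36 averaged 3.51 in selected cells and 2.94 in others, and Msr1 averaged 5.22 in selected cells and 6.21 in others. Cholesterol synthesis genes, which cells repress when sterol is plentiful, had a median difference of 0.01 over 16 genes. Of these 8 were higher, beside 67.0% of all genes, and none was past 1.

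**Figure D4:**
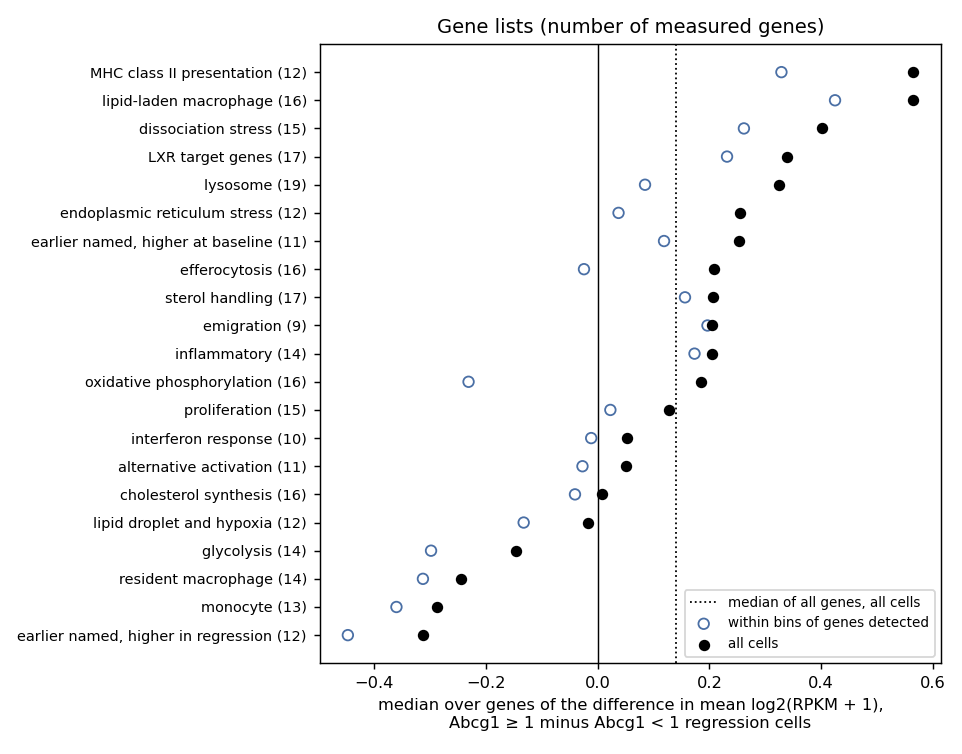
Median over each gene list of the difference in mean log2(RPKM + 1), Abcg1-expressing minus other regression cells (horizontal axis), over all cells (filled) and within bins of genes detected (open); the number of measured genes is in brackets and the dotted line marks the median of all genes over all cells, 0.14. MHC class II and lipid-laden macrophage genes have the highest medians (both 0.56), and the open circles lie left of the filled ones for all the lists drawn.

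The largest list differences were those of MHC class II presentation and of lipid-laden macrophage genes. Of 12 measured genes of MHC class II presentation, which display peptides to helper T cells, 11 were higher in the selected cells, beside 67.0% of all genes. By 1 or more, 5 were higher (H2-Aa, Cd74, H2-Eb1, H2-Ab1 and H2-DMb1), beside 3.9% of all genes. These genes are co-regulated and so do not count as separate observations. The median was 0.56, and 0.33 within bins. H2-Aa, an antigen-binding chain, had a median of 8.80 in selected cells (0 to 14.98), 1.08 in other regression cells (0 to 14.30) and 11.82 in baseline cells (0 to 14.41).

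The stretches of cell numbers went opposite ways for these genes. H2-Aa averaged 7.79 in selected and 3.82 in other cells of stretch 1 to 20, and 6.29 in selected and 3.60 in other cells of stretch 168 to 244. In stretch 93 to 111 it averaged 9.60 in selected and 10.74 in other cells. The list's median difference was 1.24 in cells 1 to 20, -0.74 in cells 93 to 111 and 1.01 in cells 168 to 244. It was 0.89 without cells 93 to 111 and 0.07 without cells 168 to 244. Cd74, the invariant chain, averaged 8.21 in selected cells, 6.41 in other regression cells and 11.18 in baseline cells, and its difference came mostly from cells with the fewest genes detected (4.87, against 0.01 and 0.91 in the other bins). All 4 of H2-Aa, H2-Ab1, H2-Eb1 and Cd74 were listed in 31 of 56 selected cells, 22 of 57 other regression cells and 98 of 125 baseline cells. None of the 4 was listed in 8 selected cells, 9 other regression cells and 2 baseline cells.

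Of 16 measured lipid-laden macrophage genes, 12 were higher in the selected cells, with a median of 0.56 (0.42 within bins), 2 higher and 1 lower by 1 or more. The count is near the share of all genes that were higher, 67.0%. The medians of the stretches were 0.49 in cells 1 to 20, 0.20 in cells 93 to 111 and 0.59 in cells 168 to 244. The galectin gene Lgals3 averaged 8.69 in selected cells, 7.52 in other regression cells and 8.37 in baseline cells. Plin2, the coat protein of lipid droplets, averaged 6.76 in selected cells and 5.81 in other regression cells, with a difference of 0.95 that was 0.44 within bins. Trem2, the lipid receptor that marks foamy macrophages, averaged 5.10 in selected cells, 5.06 in other regression cells and 5.65 in baseline cells. Spp1 (osteopontin) averaged 6.53 in selected cells and 7.78 in other regression cells, a difference of -1.25, whereas the log2 ratio of its mean RPKM was 0.28, so its direction depends on whether cells or transcripts are averaged.

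Monocyte genes tended to the other side, with 4 of 13 higher, beside 67.0% of all genes. Their median was -0.29 (-0.36 within bins), and none was lower by 1 or more. The 1 gene past 1, Chil3, was on the opposite side, with a mean of 3.12 in selected cells and 2.10 in other regression cells. Hp (haptoglobin) averaged 2.70 in selected cells and 3.69 in other regression cells, and Ccr2, the receptor that brings monocytes into tissue, averaged 6.59 in selected cells and 6.93 in others. Glycolysis genes had a median of -0.15 (-0.30 within bins), with 4 of 14 higher, beside 67.0% of all genes. Their median was -0.91 in cells 1 to 20, -0.65 in cells 93 to 111 and 0.07 in cells 168 to 244, and the 1 gene past 1, Eno1, was higher in the selected cells (mean of 5.91) than in the others (4.17). Resident macrophage genes had a median of -0.25 (-0.31 within bins), and Pf4 averaged 7.64 in selected cells and 8.57 in other regression cells. The stretches of the resident list did not agree in sign, with 0.49 in cells 1 to 20, 0.60 in cells 93 to 111 and -0.48 in cells 168 to 244.

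Genes that dissociation and sorting switch on were higher in the selected cells in 12 of 15 cases, beside 67.0% of all genes, and in 9 of 15 within bins. Their median was 0.40 (0.26 within bins), and 2, Btg2 and Zfp36, were higher by 1 or more, beside 3.9% of all genes. Btg2, an early-response antiproliferative gene, averaged 4.88 in selected cells, 3.21 in other regression cells and 6.80 in baseline cells. The part of this response in the other differences was not tested. Oxidative phosphorylation genes had a median of 0.18 over all cells and -0.23 within bins, so the side of this list turned with the bins. Inflammatory genes had a median of 0.20 (0.17 within bins), and Il1b averaged 5.26 in selected cells and 3.82 in other regression cells, although the log2 ratio of its mean RPKM was -0.10. Lysosome genes had a median of 0.32 and 0.08 within bins, and proliferation genes 0.13 and 0.02. Ccr7, the chemokine receptor tied to emigration from plaque, was listed at 0 in every regression cell kept.

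Whether the selected cells resemble baseline cells was asked with scores whose genes were picked in cells other than those scored. In one direction, the 50 genes with the highest baseline minus regression difference, and the 50 with the lowest, were picked in baseline cells 21 to 92 and regression cells 168 to 244 and measured in baseline cells 112 to 167 and regression cells 1 to 20 and 93 to 111. In the other direction the roles were exchanged. The picks shared 17 baseline-high and 22 regression-high genes. Both scores are means of log2(RPKM + 1) per cell, and Abcg1 was left out. Apoe, deleted in the baseline mice, was not left out, and its part in the regression-high score was not tested.

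The mean baseline-high score of the selected cells lay between those of the other regression cells and of baseline cells, and nearer to the other regression cells. It averaged 3.82 ± 1.37 (SD) in 18 selected cells and 3.27 ± 1.09 in 20 other cells of stretches 1 to 20 and 93 to 111, beside 5.24 ± 1.35 in 56 baseline cells. In stretch 168 to 244 it averaged 3.36 ± 1.22 in 38 selected cells and 2.86 ± 1.25 in 37 others, beside 4.99 ± 1.23 in 69 baseline cells. The differences of 0.55 and 0.49 were smaller than the SD over cells. Averaged within bins of genes detected they were 0.44 and -0.05, but the single bins did not share a sign. From the fewest to the most genes they gave 0.11, -0.18 and 1.46 in stretches 1 to 20 and 93 to 111. In stretch 168 to 244 they gave 0.26, -0.58 and 0.18. In the smaller stretches the sign varied, with 1.40 in cells 1 to 20 and -0.39 in cells 93 to 111.

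The mean of all genes moved the same way, with 2.62 in selected cells, 2.52 in other regression cells and 2.67 in baseline cells of the first direction. In the second it was 2.81 in selected cells, 2.44 in other regression cells and 2.64 in baseline cells. Across selected cells, the baseline-high score and the number of genes detected had a Spearman correlation of 0.61 (18 cells) and 0.74 (38 cells). Across the other regression cells it was 0.21 (20 cells) and 0.66 (37 cells). Both measures come from the same library of each cell, so this is a description.

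The regression-high score of the selected cells was closer to that of the other regression cells than to that of baseline cells. It averaged 4.84 ± 1.33 in selected and 5.32 ± 1.34 in other cells of stretches 1 to 20 and 93 to 111, beside 2.92 ± 1.16 in baseline cells. In stretch 168 to 244 it averaged 5.66 ± 1.07 in selected cells and 5.67 ± 1.09 in others, beside 3.37 ± 0.80 in baseline cells. The differences were -0.48 and -0.01, and -0.63 and -0.34 within bins. Weighted by cells over both directions the difference was -0.17, and 0.05 without cells 93 to 111.

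Cell by cell the groups overlapped, with baseline-high scores of 1.53 to 6.55 and 1.16 to 6.10 in selected cells, 1.60 to 5.52 and 0.97 to 5.88 in other regression cells, and 2.09 to 7.25 and 1.56 to 6.94 in baseline cells in the first and second direction. The baseline-high score lay above the baseline median in 1 of 18 and 3 of 38 selected cells, and in 0 of 20 and 3 of 37 other regression cells. The regression-high score lay at or below that of the highest baseline cell in 10 of 18 and 12 of 38 selected cells, and in 7 of 20 and 14 of 37 other regression cells. The baseline-high score was above the cell's own regression-high score in 7 of 18 and 4 of 38 selected cells, in 4 of 20 and 2 of 37 other regression cells, and in 55 of 56 and 58 of 69 baseline cells. By this last measure most Abcg1-expressing cells were on the side of the other regression cells.

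**Figure D5:**
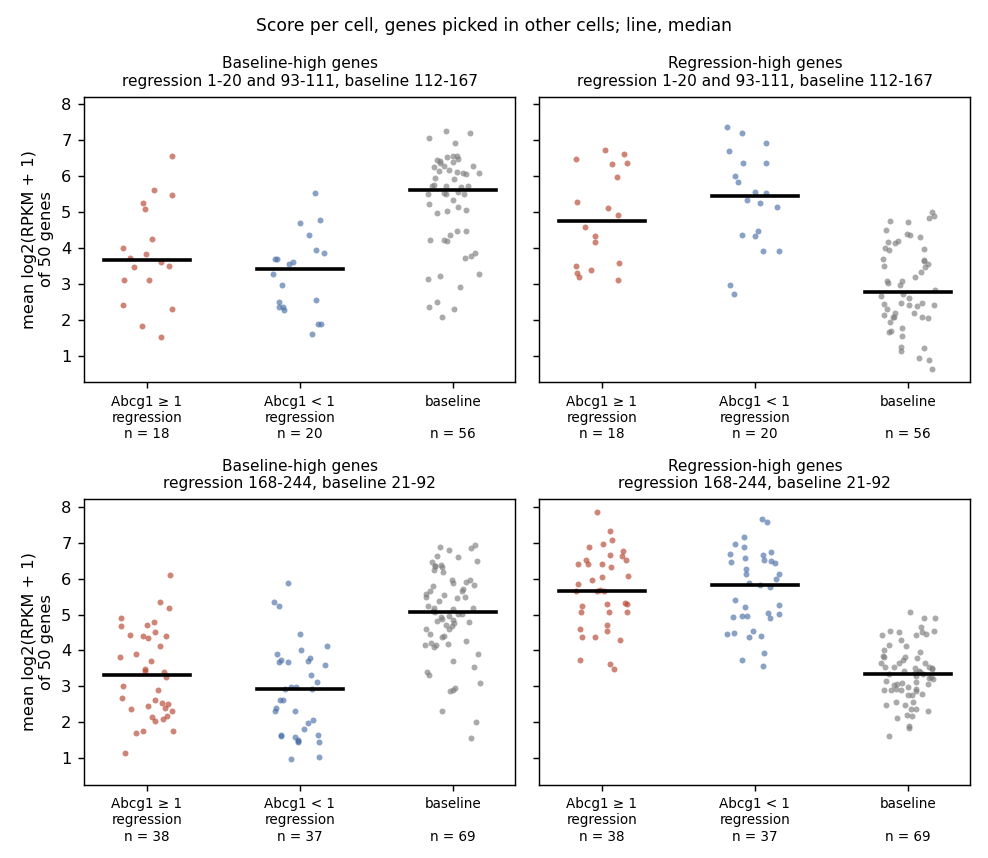
Mean log2(RPKM + 1) per cell (vertical axis) of 50 baseline-high genes (left) and 50 regression-high genes (right), picked in cells other than those plotted, for Abcg1-expressing regression cells, other regression cells and baseline cells; points are cells, lines medians, and the rows are the 2 directions of picking. Both sets of regression cells overlap broadly and sit below baseline on the left and above it on the right.

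Genes that an earlier analysis of these cells had named as high in regression were present in most selected cells. All 4 of Apoe, Thbs1, Fn1 and Arg1 were listed in 42 of 56 selected cells, 47 of 57 other regression cells and 0 of 125 baseline cells. The baseline mice were Apoe-/- and the genes were named in these same cells, so the baseline count was set by the choice. Arg1, the enzyme that turns arginine into ornithine, had a median of 8.18 in selected cells (0 to 12.63), 9.62 in other regression cells (0 to 13.06) and 0 in baseline cells (0 to 4.13). It was listed in 46 of 56 selected cells, 48 of 57 other regression cells and 3 of 125 baseline cells. Its difference of -0.98 was -1.60 within bins, and the selected cells were lower in each stretch (means of 7.42 against 9.42 in the others of cells 1 to 20, 2.72 against 4.65 in the others of cells 93 to 111, and 8.02 against 8.72 in the others of cells 168 to 244). The matrix genes Fn1 and Thbs1 averaged 7.75 and 7.72 in selected cells, and 8.18 for both in other regression cells. Of 12 genes earlier named as high in regression, 5 were higher in the selected cells, beside 67.0% of all genes. Their median was -0.31 (-0.45 within bins), with -0.53 in cells 1 to 20, 0.01 in cells 93 to 111 and -0.27 in cells 168 to 244. By 1 or more 1 was lower, beside 0.444% of all genes, and 0 were higher.

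Of 11 genes earlier named as high at baseline, 8 were higher in the selected cells, beside 67.0% of all genes, with a median of 0.25 (0.12 within bins). By 1 or more 5 of them were higher, beside 3.9% of all genes, and 0 were lower. Within bins 4 were higher by 1 or more. The median was 1.48 in cells 1 to 20, -0.68 in cells 93 to 111 and 0.29 in cells 168 to 244. Of the genes next followed cell by cell, Slamf9 had already been ranked among the highest differences. None of Cd81, Cd72, Slamf9 and Igf1 was listed in 19 of 56 selected cells, 35 of 57 other regression cells and 3 of 125 baseline cells. All 4 were listed in 3 selected cells, 1 other regression cell and 72 baseline cells. The tetraspanin Cd81 was listed in 21 of 56 selected cells (37.5%, interval 24.9 to 51.5), 12 of 57 others (21.1%, 11.4 to 33.9) and 111 of 125 baseline cells (88.8%, 81.9 to 93.7). The growth factor Igf1 averaged 0.90 in selected cells and 0.64 in other regression cells, beside 5.26 in baseline cells.

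Single cells carried genes of both kinds together. Arg1 and Slamf9 were both listed in 21 of 56 selected cells, 6 of 57 other regression cells and 3 of 125 baseline cells. Slamf9 had been ranked on the difference between the regression cells, so the higher count in selected cells follows from that choice. Whether such pairs met in the same cells more often than their separate shares give was not tested. Arg1 and H2-Aa were both listed in 31 of 56 selected cells, 23 of 57 other regression cells and 2 of 125 baseline cells. Doublets were not called, since the values are not counts, and their part in these cells was not tested.

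In baseline cells, which the rule did not use, Abcg1 marked nearly every cell, leaving 10 cells below an RPKM of 1 against 115 at or above it. Over the same 4113 genes the median difference between these baseline cells was 0.59, with 75.7% of genes higher in those with Abcg1. The 10 cells below 1 had 1095 to 2457 genes detected, against a median of 2490 over all baseline cells. In cells 112 to 167 the mean of all genes was 2.75 in those with Abcg1 and 1.65 in the 4 without. In cells 21 to 92 it was 2.67 in those with Abcg1 and 2.29 in the 6 without. The part of genes detected in the differences that follow was not tested. Of the 12 genes highest in the selected regression cells, 8 were also higher in the baseline cells with Abcg1, beside 75.7% of the 4113 genes. This count is thus no higher than the share of all genes. Slamf9 averaged 6.70 in baseline cells with Abcg1 and 3.53 in those without, and Cd9 averaged 7.63 in those with Abcg1 and 4.50 in those without. Abca1, which is not among the 12, averaged 3.74 in those with and 1.42 in those without. Dram2 went the other way, with 3.75 in baseline cells with Abcg1 and 4.26 in those without. Of the 12 lowest genes, 3 were also lower in baseline cells with Abcg1, where 75.7% of the 4113 genes were higher. Among the 3 was S100a10, which averaged 4.38 in baseline cells with Abcg1 and 5.47 in those without.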

How the data were processed

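The authors deposited 1 table of RPKM values for 244 libraries, each 1 cell; the submitters' processing notes name CASAVA 1.8.2, FastQC and mm10, and no source used here gives the aligner, the counting or its use of strand. Reads of overlapping genes or close paralogs may therefore be shared. The members and gene lists were chosen with earlier results of these data known.

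From the deposited RPKM, values were taken as log2(RPKM + 1), which understates differences of low genes, with Python 3.11.15, numpy 2.4.6, pandas 2.3.3 and scipy 1.17.1. Libraries with a log2 correlation above 0.9 were averaged, leaving 241 cells; cells with fewer than 1000 genes at an RPKM of 1 were dropped. Depth came from the RPKM steps of 5727 single-transcript genes and agreed within 10% for 209 of 241 cells. RPKM are not counts and cells are not replicates, so differences are of means over cells, with no test, and shares have exact (Clopper-Pearson) 95% intervals.

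Named genes were the 12 highest and 12 lowest differences among genes at an RPKM of 1 in at least 25% of either set of cells. They had to have 1 sign in every stretch with at least 5 cells on both sides, in the average over the 3 bins of genes detected and in the ratio of mean RPKM. Single bins could differ in sign. Genes left out were Abcg1, Rn45s, Xist, Y-linked genes, antigen receptor segments and those with predicted or clone names; the 2 largest differences of each of 21 lists and 23 fixed genes were added. Other list members are examples chosen after their values were seen. Of 357 list symbols, 355 were in the table of 24475 genes; list members had to reach an RPKM of 1 in 5% of either set. Coordinates are GENCODE M21 (GRCm38), matched by symbol for 23382 genes. The difference over all cells was checked on regression values shuffled over cells, with known changes added. Such data hold no difference in genes detected between the sides. Bins, stretches, lists and scores were not part of this check. The 15 alternatives changed the pseudocount, bins, stretches, filters, scaling, Abcg1 threshold, ratio and score size.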

Additional observations from a re-analysis of the deposited data

Results flagged for a closer look

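The 9 genes below differed between cells with and without Abcg1 by more than 1 in one direction among regression cells and by more than 1 in the opposite direction among baseline cells. The difference between the groups was not tested, and 10 baseline cells had Abcg1 below 1, so the baseline values rest on few cells.

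Mrpl33 differed by 2.14 among regression cells and by -1.22 among baseline cells. For the others the regression cells with Abcg1 were lower and the baseline cells with Abcg1 higher. Among baseline cells 75.7% of the 4113 genes were higher in those with Abcg1, with a median difference of 0.59. The 10 baseline cells below 1 had 1095 to 2457 genes detected, and the part of this in the opposite signs was not tested. Ndufc2 differed by -1.47 among regression and 2.37 among baseline cells, and Ndufb9 by -1.24 among regression and 1.24 among baseline cells. Cmtm3 differed by -1.38 among regression and 1.52 among baseline cells, and Ms4a4a by -1.33 among regression and 2.81 among baseline cells. Fam32a differed by -1.23 among regression and 1.05 among baseline cells, and Lamtor1 by -1.18 among regression and 3.22 among baseline cells. Spp1 differed by -1.25 among regression and 3.66 among baseline cells, and the interferon-induced gene Rtp4 by -1.03 among regression and 1.14 among baseline cells.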

How the results depend on the processing

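Counts of genes past 1 moved most. The 365 higher genes became 1054 with a pseudocount of 0.1, 41 with a pseudocount of 10, 179 within bins of genes detected, 568 without regression cells 93 to 111 and 645 without cells 168 to 244. The 38 lower genes became 102 and 1 with those pseudocounts, 88 within bins, 139 with stretches weighted equally, 444 without cells 168 to 244, 132 among cells with at least 2000 genes and 374 as log2 ratios of mean RPKM. The MHC class II median of 0.56 became 0.85 with a pseudocount of 0.1, 0.32 with 10, 0.33 within bins, 0.355 with equal stretches, 0.89 without cells 93 to 111, 0.072 without cells 168 to 244 and 0.35 among cells with at least 2000 genes. The lipid-laden median of 0.56 became 0.34 with a pseudocount of 10, 0.35 with equal stretches and 0.29 as a ratio. Averaged over both directions of picking, weighted by cells, the baseline-high score difference of 0.51 became 0.12 within bins and 0.77 without cells 93 to 111. The regression-high difference of -0.17 became -0.44 within bins, -0.37 with equal stretches, -0.064 after rescaling each cell to 1000000, and turned to 0.053 without cells 93 to 111 (which also changes the genes picked), 0.035 among cells with at least 2000 genes and 0.033 with 100 genes a score. The median difference of 206.5 genes detected became 476 without cells 93 to 111 and 29 without cells 168 to 244. Signs of 5 named genes turned: Eno1 to -0.019 and Cycs to -0.78 without cells 168 to 244, Cd68 to -0.13 among cells with at least 2000 genes, and Spp1 to 0.28 and Il1b to -0.10 as ratios. None of the 24 ranked genes turned under the alternatives run, although the choice required this for several. Their sizes were less steady, and 23 of the 24 changed by a factor of more than 1.5 under an alternative. The causes were not tested. Scores could not be computed without cells 168 to 244, which leave no other cells to pick genes in. No paired analysis was possible because the numbers in the labels name single cells and are not shared between the groups.

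Each group is 1 sample, so differences between animals, grafts or chips and those between groups cannot be told apart. Regression and baseline cells also differ in transplantation and in the Apoe genotype and diet of the host mouse. These cannot be told apart either, including where selected cells are set beside baseline cells. Abcg1 listed at 0 means that the transcript was not detectable at that cell's depth.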
